A study of Mus musculus with 12 samples.

Results

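The genes described here are 10 genes of fatty acid uptake, binding and activation in mouse liver. They were chosen by their symbols, with earlier results of these data known. They are 10 of the 23420 gene symbols in each deposited table. By role, Cd36 and Slc27a2 encode proteins of the membrane that take part in uptake. Fabp1, Fabp2 and Dbi encode soluble proteins that bind fatty acids or their coenzyme A esters. Acsl1, Acsl3, Acsl4, Acsl5 and Acsm1 encode synthetases that join a fatty acid to coenzyme A. A fatty acid that enters a hepatocyte is bound by a carrier, since it is poorly soluble in water, and must be activated to an acyl-CoA before it can be oxidized, esterified or elongated. The family of ACSL enzymes acts on long-chain fatty acids and its members sit on different membranes of the cell, while ACSM enzymes act on medium-chain fatty acids. The liver is known for high levels of FABP1 and ACSL1, and many genes of this pathway are known targets of PPARA, a nuclear receptor activated by fatty acids.

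The study asked whether loss of SIAH2, a ubiquitin ligase, changes the liver transcriptome late in the light phase, in females and in males. Livers were taken at zeitgeber time (ZT) 10, that is 10 h after lights on in a cycle with 12 h of light, from mice about 20 weeks of age on a C57BL/6 background with free access to normal chow. The 4 groups were wild type females, Siah2 KO females, wild type males and Siah2 KO males, with 3 mice in each and 12 libraries in all. Siah2 KO mice were homozygous (Siah2-/-), and both genotypes were kept as related homozygous lines founded from a cross of heterozygotes, so line and genotype cannot be told apart. The labels describe RNA pooled from 3 mice, whereas the study's text describes individual livers for this experiment, and since each library carries 1 mouse number it was taken as 1 mouse. If that is wrong, the p-values measure only the spread between these samples. Females and males were deposited in separate tables with separate blocks of library numbers, and sex and these blocks cannot be told apart.

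Between 1293688 and 4056144 reads per library were counted on genes by QuantSeq, a method that reads each transcript near its 3′ end, so that a longer transcript does not give more reads. Levels are given in CPM, edgeR's count relative to a library total that was scaled by the TMM method over the 12 libraries, and all 10 genes passed the filter on low counts in each comparison. The tissue label was borne out by its markers, since 6 hepatocyte genes summed to between 30856 and 50691 CPM. Xist was at least 66.0 CPM in each female and at most 0.863 CPM in each male. The deleted gene gave 13.5 ± 2.93 CPM (SD, n = 3) in wild type females, 10.7 ± 1.57 in Siah2 KO females, 21.7 ± 5.15 in wild type males and 13.9 ± 4.05 in Siah2 KO males. The sources used here do not say where its 3′ tag lies relative to the deletion, and its reads therefore check nothing. The library of wild type female 1091 stood apart from the other wild type females (its pairs with them had a chi-square per degree of freedom of 42.0 and 45.0, while other pairs within a group had 6.71 to 21.8), and results on the 10 genes that rest on it are also given without it. In whole liver, fewer cells of a type and less RNA per cell cannot be told apart.

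Together the 10 genes took 1.38% to 2.36% of all reads counted per mouse, and Fabp1 and Dbi together held between 81.9% and 90.2% of that share. In each of the 4 groups Fabp1 was first and Dbi second among the 10, without overlap between the mice of a group. Fabp2, Acsl3 and Cd36 were the last 3 in each group, and the ranges of neighbors among these overlapped. Acsl1, Slc27a2, Acsl5, Acsm1 and Acsl4 lay between. Their order was not the same in all groups: Acsl1 was the third in wild type females but the fifth in Siah2 KO females, where its range overlapped that of Acsm1 and lay below that of Acsl5.

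Cd36 encodes a scavenger receptor that binds long-chain fatty acids and lies on chromosome 5 (17781690 to 17888959 of GRCm38.p6, minus strand). It was the lowest of the 10 in each group. It gave 43.0, 26.9 and 11.4 CPM in wild type females 1089, 1090 and 1091, and 46.1, 38.1 and 57.4 CPM in Siah2 KO females 1070, 1104 and 1105. In males it gave 41.1, 45.5 and 20.7 CPM in wild type mice 1055, 1086 and 1087 and 43.6, 36.3 and 18.7 CPM in Siah2 KO mice 1075, 1076 and 1081. All 4 groups overlapped, and with 36 to 171 reads per library these are the thinnest counts of the 10. The mice are listed in this order throughout.

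Slc27a2 encodes FATP2, a fatty acid transport protein that is also a very long-chain acyl-CoA synthetase (chromosome 2, 126553024 to 126588243, plus strand). It gave 517, 778 and 244 CPM in wild type females, against 558, 845 and 996 CPM in Siah2 KO females. Its levels were 803, 975 and 929 CPM in wild type males and 1012, 856 and 1011 CPM in Siah2 KO males. The 3 wild type females lay below the 3 wild type males, and the other pairs of groups that share a sex or a genotype overlapped.

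Fabp1 encodes the liver fatty acid binding protein (chromosome 6, 71199879 to 71205034, plus strand). It gave 9555, 8702 and 15803 CPM in wild type females, against 8416, 10789 and 8004 CPM in Siah2 KO females. Males gave 13589.5, 11724 and 13441 CPM (wild type) and 14024, 12555 and 14163 CPM (Siah2 KO). Of the 6 females, mouse 1091 alone reached the range of the males. Fabp2 encodes the intestinal form (chromosome 3, 122895072 to 122899506, plus strand) and was counted in each library. Its levels were 57.7, 38.2 and 64.1 CPM in wild type females, then 54.1, 83.9 and 44.9 in Siah2 KO females, 57.1, 45.5 and 50.6 CPM in wild type males and 74.0, 38.9 and 75.9 CPM in Siah2 KO males. The groups overlapped. Alpi, an enterocyte marker, was at 0 in each library, and Vil1, Lct and Sis were at most 2.77 CPM. Apoa4, the fifth marker of that list, which hepatocytes also express, was at 25.9 to 132 CPM, and the list summed to 43.6–134 CPM in Siah2 KO females and 25.9–48.9 CPM in the other groups.

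Dbi encodes the acyl-CoA binding protein ACBP (chromosome 1, 120113280 to 120121096, minus strand). Processed copies of this gene exist in the genome, and how the authors' counting treated reads shared with them was not stated. It gave 3994, 4037 and 7788 CPM in wild type females, against 5533, 5348 and 3316 CPM in Siah2 KO females. In males the values were 5106, 4399.8 and 5434 CPM (wild type) and 4729, 4033 and 4712 CPM (Siah2 KO). The groups overlapped. The ratio of Fabp1 to Dbi counts within a library was between 1.52 and 2.41 in the Siah2 KO females and between 2.97 and 3.11 in the Siah2 KO males. It was 2.03 to 2.39 in wild type females and 2.47 to 2.66 in wild type males. In both genotypes the females did not reach the males, but how many other pairs of genes separate in this way was not counted. Single genes did not overlap between the sexes for 22.7% of those tested in wild type mice and 30.7% in Siah2 KO mice.

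Among the long-chain synthetases, Acsl1 has its gene on chromosome 8 (46471037 to 46536051, plus strand) and encodes a main isoform of hepatocytes. It gave 604, 682 and 596 CPM in wild type females, against 265, 394 and 434 CPM in Siah2 KO females. It gave 904, 921 and 527 CPM in wild type males and 810.2, 939.9 and 1096 CPM in Siah2 KO males. Each Siah2 KO female lay below each of the other 9 mice, and the share of all genes with this pattern was not counted. Siah2 KO females did not overlap with wild type females for 23.4% of genes tested, nor with Siah2 KO males for 30.7%. Acsl3 (chromosome 1, 78657825 to 78707743, plus strand) encodes a synthetase of the endoplasmic reticulum and lipid droplets. It gave 91.4, 55.5 and 89.5 CPM in wild type females, then 84.8, 78.8 and 72.4 in Siah2 KO females, 44.9, 42.5 and 60.4 CPM in wild type males and 37.2, 48.8 and 48.4 CPM in Siah2 KO males. Apart from wild type female 1090, the females lay above the males.

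Acsl4, which prefers arachidonate, lies on the X chromosome (142317993 to 142390802, minus strand). It gave 150.2, 119 and 180.0 CPM in wild type females, then 171, 202 and 176 in Siah2 KO females, 161, 271 and 270.4 CPM in wild type males and 233, 199 and 222 CPM in Siah2 KO males. Wild type male 1055 and Siah2 KO male 1076 stood within the range of the females. Acsl5 (chromosome 19, 55251861 to 55296628, plus strand) encodes a synthetase of mitochondria and endoplasmic reticulum. Its levels were 364, 369 and 685 CPM in wild type females, then 561, 529 and 443 in Siah2 KO females, 378, 355 and 527 CPM in wild type males and 385, 370.4 and 372 CPM in Siah2 KO males. The Siah2 KO males lay close to each other and below all 3 Siah2 KO females. Acsm1, a medium-chain synthetase of mitochondria (chromosome 7, 119617757 to 119662515, plus strand), gave 251, 184 and 691 CPM in wild type females, against 415, 405 and 273 CPM in Siah2 KO females. In males it gave 355, 271 and 318 CPM (wild type) and 385, 217 and 289 CPM (Siah2 KO), and mouse 1091 alone was above 415 CPM.

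**Figure D1:**
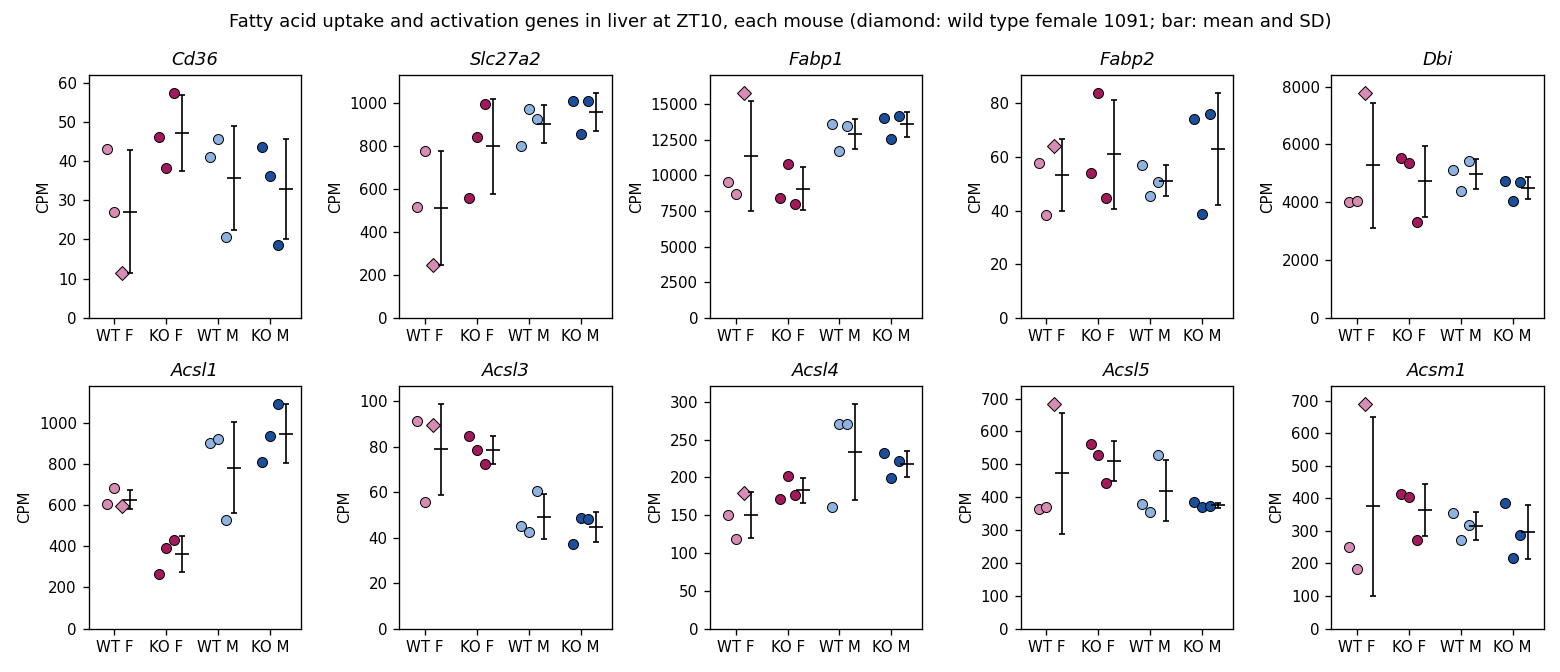
Level in CPM of each of the 10 genes in each mouse, by group (WT, wild type; KO, Siah2 KO; F, females; M, males), with the mean and SD of 3 mice as a bar at the right of each group and wild type female 1091 as a diamond. Acsl1 was between 265 and 434 CPM in the Siah2 KO females. The diamond is at the top of the panels of Fabp1, Dbi, Acsl5 and Acsm1 and at the bottom of those of Cd36 and Slc27a2.

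Since wild type female 1091 entered 4 of the 6 comparisons, its values were set beside those of the other mice. It had the highest level of the 12 mice for Fabp1, Dbi, Acsl5 and Acsm1 and the lowest for Slc27a2 and Cd36, which is 6 of the 10 genes, against 40.0% of 9806 genes. Acsm1 was 3.18 times the mean of the other wild type females, Dbi 1.94 times and Fabp1 1.73 times. Slc27a2 was 2.66-fold lower and Cd36 3.06-fold lower than that mean. Acsl1 in this mouse was 0.927 times the mean of the other wild type females.

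To see whether these genes share sequence at their starts, the RefSeq windows of GRCm38.p6 from 250 bases before to 50 bases after a start were searched on both strands for exact matches. There were 12 windows of 300 bases for the 10 genes. The windows of Cd36, Acsl4 and Acsl5 do not hold the outer start of the gene as given above, and that of Cd36 (17835847 to 17836146) lies well inside the gene. The E-box CACGTG, bound by clock factors, was in 0 of the 12 windows and in 7.15% of 32851 windows of all genes. The hexamer AGGTCA, bound by nuclear receptors, was in 4 windows, those of Acsm1, Slc27a2, Fabp1 and Cd36, and in 16.3% of all windows. A repeat of this hexamer with 1 base between, AGGTCANAGGTCA, is the exact form of DR1, the element that PPARA and its partner RXR bind. This form was in 0 of the 12 windows and in 0.0396% of all, a share so low that 12 windows would rarely hold it. Forms that differ from it by a letter were not searched, so the 0 does not show that these genes lack a DR1. Such a form can be read in the Fabp1 stretch printed below, where TGACCT is followed by 1 base and then by tggcct. The stretches with the hexamer are shown because they include the most abundant of the 10 genes and both uptake genes. The capitals mark the hexamer, which reads as TGACCT on the strand of the gene in all of them.
Acsm1 (chr7:119617687-119617726, plus strand): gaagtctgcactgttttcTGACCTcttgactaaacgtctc
Slc27a2 (chr2:126552787-126552826, plus strand): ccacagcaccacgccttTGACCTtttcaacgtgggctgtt
Fabp1 (chr6:71199779-71199878, plus strand): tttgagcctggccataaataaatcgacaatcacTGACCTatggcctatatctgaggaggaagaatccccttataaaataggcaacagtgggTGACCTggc
Cd36 (chr5:17836102-17836141, minus strand): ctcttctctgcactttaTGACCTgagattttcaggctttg

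Fabp1 had a pair of hexamers within 100 bases before its start, and each of the other 3 genes had 1. These matches are letters in a window, and no data on binding enter here. With all mice and by edgeR, Fabp1 passed the test in 1 comparison and Acsm1, Slc27a2 and Cd36 in none. Acsl1 and Acsl3, which passed, hold none of the motifs searched in these windows. Whether the motifs bear on the levels was not tested.

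To ask how Siah2 loss bore on these genes in females, the 3 Siah2 KO females were compared with the 3 wild type females. Acsl1 had the smallest p of the 10, with a mean of 364 ± 88.1 CPM (SD, n = 3) in Siah2 KO females against 628 ± 47.3 CPM (n = 3) in wild type females, and the groups did not overlap. The log2 fold change was −0.80 (standard error 0.25, 95% interval −1.36 to −0.23), which is 1.74-fold lower, but it did not pass the threshold after adjustment over all genes (edgeR's quasi-likelihood test, adjusted p = 0.184). By edgeR 0 of the 10 genes were called at an adjusted p of 0.05, as were 0 of 9465 in all (0%), and an unadjusted p under 0.05 was found for 1 of the 10 against 15.6% of genes. By DESeq2 0 of the 10 were called against 3.80% of genes, with 0.0682 as the adjusted p of Acsl1, and limma-voom called 0 of the 10 (0% of genes). Acsl1 was the 1 gene of the 10 without overlap between the groups, against 23.4% of the genes tested. With mouse 1091 left out, the value of Acsl1 was −0.82 and passed by edgeR (adjusted p = 0.0373), alone among the 10 and against 9.64% of genes. DESeq2 without this mouse called 2 of the 10, Acsl1 (adjusted p = 0.0068) and Acsm1, against 10.6% of genes.

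None of the other genes of the list passed the threshold with all mice, and the intervals of Cd36 and Slc27a2 held both directions. Of the uptake genes, the log2 fold change of Cd36 was 0.78 (95% interval −0.13 to 1.70) and that of Slc27a2 was 0.63 (95% interval −0.26 to 1.52). Without mouse 1091 they were 0.43 and 0.30, both nearer to 0 than with it. Of the binding proteins, Fabp1 had a log2 fold change of −0.34 with all mice and −0.01 without mouse 1091, and Dbi had −0.17 with all mice and 0.24 without it. Among the synthetases, Acsl4 had 0.28 and Acsl5 had 0.10, and these were 0.44 and 0.48 without mouse 1091. For these 2 synthetases both values were above 0, and none passed the threshold. Acsm1 had −0.06 with all mice. Without mouse 1091 it had 0.75 (adjusted p = 0.062 by edgeR and 0.022 by DESeq2), so whether Acsm1 was called, and its sign, turned on this library. The median log2 fold change of the 10 genes was 0.04, and that of all genes tested was −0.03.

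In males, the Siah2 KO and wild type mice overlapped for each of the 10 genes, against 8.87% of 8823 genes without overlap. The log2 fold changes lay between −0.18 and 0.30, and none had an adjusted p below 0.9999 by edgeR's quasi-likelihood test. Of the 10, 0 were called (0% of genes in all), and 0 had an unadjusted p under 0.05 against 4.05% of genes. By DESeq2 0 of the 10 passed, against 0.037% of genes. Acsl1 had a mean of 949 ± 143 CPM (n = 3) in Siah2 KO males and 784 ± 223 CPM (n = 3) in wild type males, a log2 fold change of 0.27 (95% interval −0.17 to 0.70). Fabp1 at 0.06 (95% interval −0.23 to 0.35) and Slc27a2 at 0.08 (95% interval −0.23 to 0.38) had narrower intervals. Like that of Acsl1 in males, these leave out changes as large as that of Acsl1 in females. Fabp2 at 0.30 (95% interval −0.20 to 0.81) and Cd36 at −0.12 (95% interval −0.84 to 0.60) were less precise. With both sexes combined and no term for sex, 0 of the 10 genes were called by edgeR against 1 of 9020 (0.0111%), and 0 had an unadjusted p under 0.05. DESeq2 and limma-voom also called 0 of the 10. The edgeR log2 fold changes of the 10 genes lay between −0.17 and 0.35, with adjusted p between 0.894 and 0.987. Without mouse 1091 they lay between −0.16 (Acsl1) and 0.31 (Fabp2), and edgeR again called 0 of the 10.

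**Figure D2:**
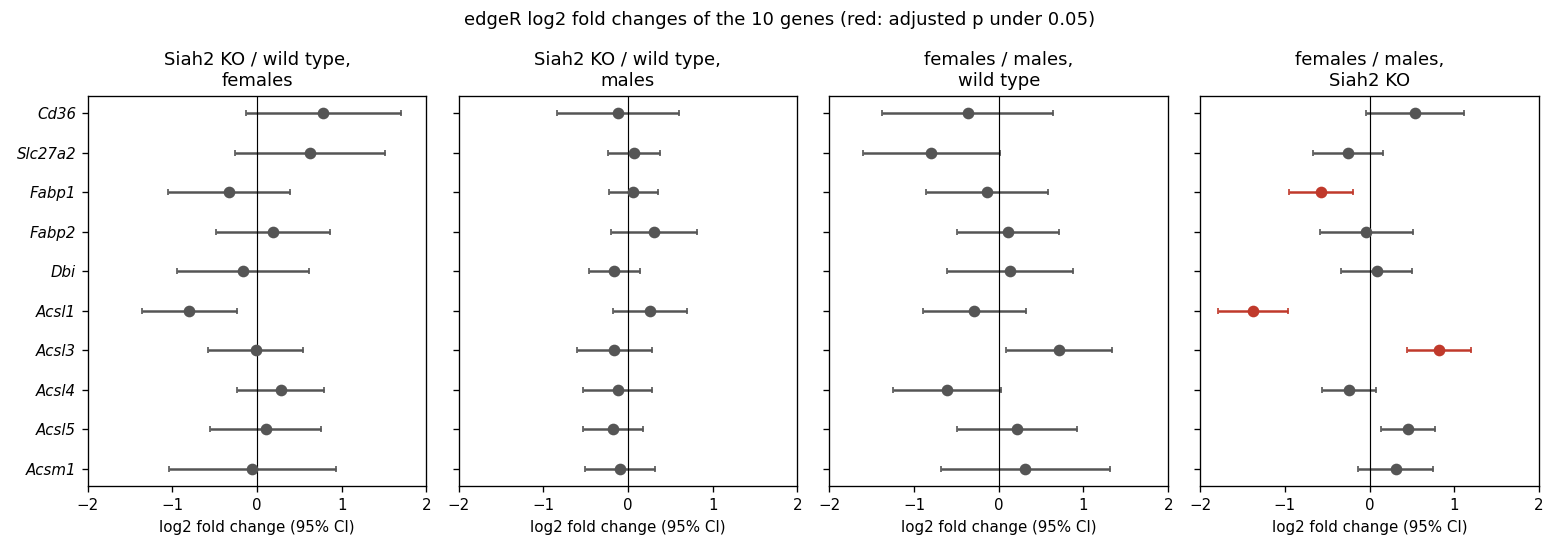
Log2 fold change (x axis) with its 95% interval for each of the 10 genes from edgeR in 4 comparisons of 3 against 3 mice, in red where the adjusted p is under 0.05. Acsl1 is at −0.80 between female genotypes and at 0.27 between male genotypes, neither of them red, and the red points are Acsl1, Acsl3 and Fabp1 between Siah2 KO females and males.

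Whether Siah2 loss acted differently in females and males was tested as a contrast, females' change less that of males. For Acsl1 this difference was −1.06 on the log2 scale (standard error 0.34, 95% interval −1.79 to −0.33), with an adjusted p of 0.170 in edgeR's quasi-likelihood test. The adjusted p by DESeq2 was 0.0564. Without mouse 1091 the difference was −1.09, which edgeR did not call (adjusted p = 0.062) and DESeq2 did (adjusted p = 0.0185), as 1 of the 10 against 8.22% of genes. A difference between the sexes in the response of Acsl1 was therefore not called with all mice by either tool. By edgeR 0 of the 10 were called, against 25 of 9806 genes (0.255%), and 1 of the 10 had an unadjusted p under 0.05, against 14.1% of genes. By DESeq2 0 of the 10 were called with all mice, against 4.03% of genes. The differences of Cd36 (0.91, 95% interval −0.34 to 2.16), Slc27a2 (0.55, standard error 0.45), Acsl4 (0.40, −0.27 to 1.07) and Fabp1 (−0.40, −1.11 to 0.32) did not pass either test. Without mouse 1091 they were 0.55, 0.22, 0.56 and −0.07. The genotype effect had the same sign in both sexes for 5 of the 10 genes, against 44.8% of 8659 genes, and without mouse 1091 for 2 of the 10, against 44.3% of 8698 genes.

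In wild type mice, the log2 fold changes of females over males were above 0 for Acsl3, Acsm1 (0.31), Acsl5, Dbi (0.13) and Fabp2 (0.11) and below 0 for Slc27a2, Acsl4, Cd36, Acsl1 and Fabp1, with none past the threshold. Slc27a2 did not overlap, with 513 ± 267 CPM (n = 3) in females against 902 ± 89.2 CPM (n = 3) in males. Its log2 fold change was −0.79 (95% interval −1.60 to 0.01, adjusted p = 0.336 by edgeR), and −0.47 without mouse 1091. It was the 1 gene of the 10 without overlap, against 22.7% of all genes tested. Acsl3 had 0.71 (95% interval 0.08 to 1.33, adjusted p = 0.266) and Acsl4 had −0.61 (95% interval −1.25 to 0.03, adjusted p = 0.352). The log2 fold change of Acsl1 was −0.29 (95% interval −0.90 to 0.32) and that of Acsl5 was 0.22 (95% interval −0.50 to 0.93). By edgeR 0 of the 10 were called, against 130 of 9335 genes (1.39%), and 1 of the 10 had an unadjusted p under 0.05, against 15.2% of genes. By DESeq2 0 of the 10 were called, against 3.68% of genes. Without mouse 1091, DESeq2 called 2 of them against 11.9% of genes, Acsl4 (adjusted p = 0.0195) and Fabp1 (adjusted p = 0.0405), both lower in females as were 8.20% of genes. edgeR without this mouse called 0 of the 10, against 7.73% of genes, with a log2 fold change of −0.49 for Fabp1 against −0.14 with all mice. Cd36 went from −0.37 with all mice to −0.00 without mouse 1091. Acsm1 changed sign without it, from 0.31 to −0.53, as did Dbi (to −0.30), Acsl5 (from 0.22 to −0.19) and Fabp2 (to −0.08). Acsl1 (−0.28), Acsl3 (0.56) and Acsl4 (−0.80) kept their signs, as did Slc27a2 and Fabp1.

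In Siah2 KO mice, Acsl1 was 2.60-fold lower in females than in males. Its log2 fold change was −1.38 (standard error 0.19), with adjusted p = 0.000316 in edgeR's quasi-likelihood test, and it was called with each of the 6 mice left out in turn, at values between −1.53 and −1.19. Acsl3 was higher in females, at 78.7 ± 6.23 CPM (n = 3) against 44.8 ± 6.58 CPM (n = 3), a difference of 0.82 on the log2 scale (standard error 0.18, adjusted p = 0.0078), and was also called with each mouse left out. In a fit of all 4 groups, where the spread of the wild type mice also enters, Acsl1 kept its call (adjusted p = 0.004) and Acsl3 did not (adjusted p = 0.0632). Fabp1 was lower in females, at 9069 ± 1504 CPM (n = 3) against 13581 ± 891 CPM (n = 3), a difference of −0.58 on the log2 scale (standard error 0.18, adjusted p = 0.0478). It lost its call in the fit of all 4 groups (adjusted p = 0.201) and without any 1 of Siah2 KO males 1075, 1076 and 1081 and Siah2 KO females 1070 and 1105, with an adjusted p of at most 0.139. Acsl5 had 0.45 (standard error 0.15), past the threshold by DESeq2 (adjusted p = 0.0462) but not by edgeR (adjusted p = 0.0617), where it passed only without Siah2 KO female 1105.

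Thus 3 of the 10 genes were called by edgeR in Siah2 KO mice, against 1044 of 9102 genes tested (11.5%), of which 1 was higher and 2 were lower in females (5.69% and 5.78% of genes). DESeq2 called 4, the same 3 and Acsl5, against 8.20% of genes, and limma-voom called 3 against 12% of genes. Without overlap were 4 of the 10, Acsl1, Acsl3, Acsl5 and Fabp1, against 30.7% of all genes tested, which is a share close to theirs. The genes that did not pass had log2 fold changes of 0.54 for Cd36 (95% interval −0.04 to 1.12), −0.26 for Slc27a2 (95% interval −0.67 to 0.15) and −0.24 for Acsl4 (95% interval −0.56 to 0.07). For Acsl1, the test of whether the sex difference depends on genotype is the one above, since it is the same contrast, and it gave an adjusted p of 0.170. The sex difference had the same sign in both genotypes for 8 of the 10 genes, and for 6 without mouse 1091, against 56.1% of 8894 genes and 55.2% of 8964 genes.

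**Figure D3:**
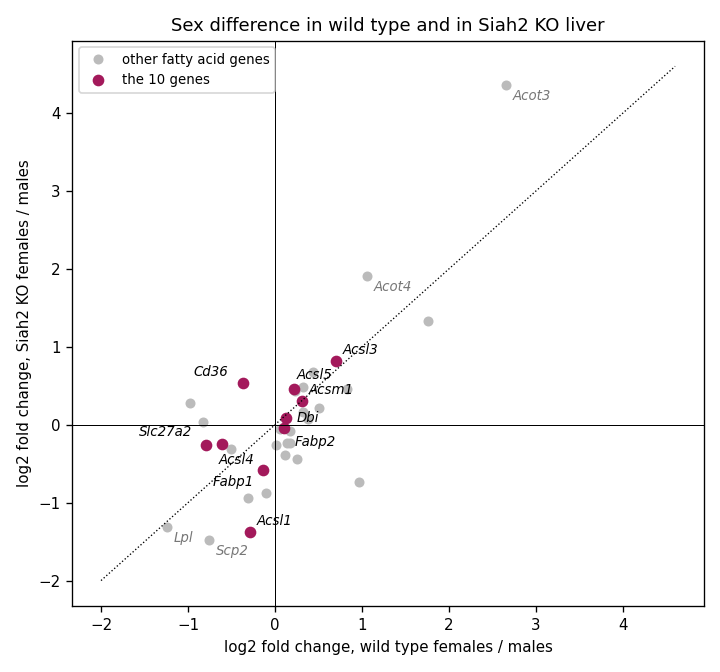
Log2 fold change of females over males in wild type mice (x axis) and in Siah2 KO mice (y axis) for the 10 genes and for 25 other fatty acid genes tested in both, with the line of equal values dotted. Acsl3 lies near the line at 0.71 and 0.82, whereas Acsl1 is at −0.29 in wild type and −1.38 in Siah2 KO mice.

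Counts within the ACSL family of 1 library need no scaling between libraries, so the makeup of Acsl1, Acsl3, Acsl4 and Acsl5 was also taken as shares. Together these 4 held between 0.109% and 0.174% of the counts. Acsl1 made up 24.5%, 32.7% and 38.5% of them in Siah2 KO females, and 49.9%, 55.6% and 38.5% in wild type females. It made up 60.7%, 57.9% and 38.0% in wild type males and 55.3%, 60.3% and 63.1% in Siah2 KO males. The Siah2 KO females and males did not overlap in this share, nor did they for 30.7% of single genes tested. Wild type female 1091 and wild type male 1087 reached the Siah2 KO females. These mice had both the lowest Acsl1 and the highest Acsl5 of their groups.

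**Figure D4:**
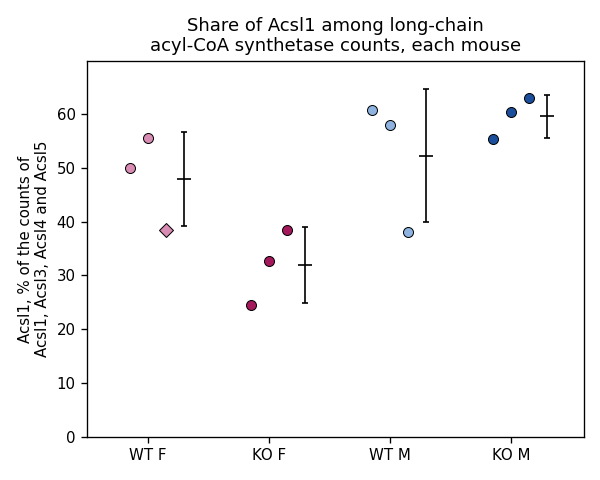
Share of Acsl1 among the counts of Acsl1, Acsl3, Acsl4 and Acsl5 in each mouse, in percent, by group (WT, wild type; KO, Siah2 KO; F, females; M, males), with the mean and SD of 3 mice as a bar and wild type female 1091 as a diamond. The mean share was 31.9% in Siah2 KO females, 48.0% in wild type females, 52.2% in wild type males and 59.6% in Siah2 KO males.

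Correlations of log2 CPM over the 12 libraries describe which genes had patterns alike, and the points share groups, depth and mouse 1091. Acsl1 ran against Acsl3 (Pearson's r = −0.75, and −0.80 over 11 libraries without mouse 1091) and against Acsl5 (r = −0.68, and −0.86 without it). Acsm1 ran with Dbi (r = 0.86, and 0.72 without it) and with Acsl5 (r = 0.79, and 0.62 without it). For deviations from the group means over the 12 libraries, r was −0.47 for Acsl1 with Acsl3 and −0.57 for Acsl1 with Acsl5. It was 0.90 for Acsm1 with Dbi and 0.81 for Acsm1 with Acsl5. Among 6695 genes at 10 CPM or more on average, those most like Acsl1 were Mn1 (r = 0.93), Dtnbp1 (r = 0.93) and Wapal (r = 0.91). Those most like Acsl3 were Nmi (r = 0.94), Abcd2 (r = 0.92), a peroxisomal transporter of very long-chain acyl-CoA, and Pla2g16 (r = 0.91), a phospholipase. Those most like Slc27a2 were Ankib1 (r = 0.97, and 0.90 without mouse 1091), Hsd17b4 (r = 0.97, and 0.90 without it), a peroxisomal enzyme of fatty acid oxidation, and Rapgef4 (r = 0.97, and 0.92 without it). The genes first in likeness to the rest were Gstz1 for Acsm1 (r = 0.97), Mmab for Dbi (r = 0.94), Tmem106a for Acsl5 (r = 0.94), Lancl1 for Fabp1 (r = 0.93), Mettl3 for Cd36 (r = 0.90), Dcaf5 for Acsl4 (r = 0.88) and Ikbkb for Fabp2 (r = 0.87). Without mouse 1091 these values lay between 0.80 (Mettl3) and 0.97 (Gstz1).

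The rest of the pathway was taken as a list of 44 other genes of acyl-CoA synthetases, fatty acid transporters and binding proteins, acyl-CoA binding proteins and acyl-CoA thioesterases. Of these, 25 to 27 were tested, and between genotypes edgeR called 0 of 25 in females and 0 of 26 in males, with 0 called by DESeq2. An unadjusted p under 0.05 was found for 2 and 3 of them, against 15.6% and 4.05% of all genes. In females the smallest unadjusted p was that of Slc27a4, which encodes the transporter FATP4, which was at −1.17 on the log2 scale (adjusted p = 0.125 by edgeR), followed by Fabp4 at 0.72 and Got2 at −0.41. In males Scp2 (0.33), Acss2 (−0.79) and Acbd4 (0.42) came first, none of them called. Between wild type females and males 1 of 25 was called (1.39% of all genes), Lpl, which encodes lipoprotein lipase, with a log2 fold change of −1.24 (adjusted p = 0.0465). DESeq2 called it as well as Scp2 (−0.76) and Acot3 (2.65), against 3.68% of all genes. Between Siah2 KO females and males 7 of 26 were called by both tools, 3 higher and 4 lower in females, against 11.5% of all genes by edgeR and 8.20% by DESeq2. Lower were Scp2, a sterol and fatty acid carrier of peroxisomes (−1.48), Lpl (−1.31), the thioesterase gene Them4 (−0.95) and Acbd4 (−0.88), which like Dbi encodes an acyl-CoA binding protein. Higher were the transporter and bile acid synthetase Slc27a5 (0.49) and the thioesterase genes Acot3 (4.36) and Acot4 (1.91). Acot3 and Acot4 belong to a cluster of closely related neighbors that can share reads, so their values are uncertain. The difference between the sexes in the effect of Siah2 loss was called by DESeq2 for 1 of 27, Scp2 (−0.69, adjusted p = 0.0247), against 4.03% of all genes. edgeR called 0, with 4 at an unadjusted p under 0.05 against 14.1% of all genes.

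Of 18 genes of PPARA and its targets that are not among the 10, 16 were tested. Between female genotypes edgeR called 0, with 5 of 16 at an unadjusted p under 0.05 against 15.6% of all genes, 4 of them lower in Siah2 KO females. Their median log2 fold change was −0.51, and that of all genes −0.03. DESeq2 called 1 (3.80% of all genes), Plin2, which encodes a lipid droplet protein, at 215 ± 58.2 CPM (n = 3) in Siah2 KO females and 565 ± 169 CPM (n = 3) in wild type females, which is −1.41 on the log2 scale (adjusted p 0.0022 by DESeq2, 0.0962 by edgeR). Between male genotypes edgeR called 0, with 1 at an unadjusted p under 0.05 against 4.05% of all genes, and DESeq2 called 0. For Plin2, DESeq2 also called the difference between the sexes in the effect of Siah2 loss (−1.57, adjusted p = 0.0157), whereas edgeR did not (adjusted p = 0.108). Between Siah2 KO females and males edgeR called 4 of 16, against 11.5% of all genes. Cpt1a, the gate of mitochondrial import of long-chain acyl groups, was higher in females (1.02), while Angptl4 (−0.73), Plin2 (−0.98) and Acaa1b (−1.08) were lower. DESeq2 called these and Cyp4a10 (0.67), against 8.20% of all genes. Between wild type females and males edgeR called 0, with 2 at an unadjusted p under 0.05 against 15.2% of all genes. DESeq2 called 2 (3.68% of all genes), among them Vnn1, a pantetheinase, at 1.71 on the log2 scale.

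Markers of other cells that express some of these genes are given beside them. Markers of Kupffer cells (9 of 9 measured) summed to 369.8–852 CPM in Siah2 KO females and 500.3–678 in wild type females. In males they summed to 112–257 CPM (Siah2 KO) and 99.6–626 CPM (wild type). Siah2 KO females were thus above Siah2 KO males for these markers. They were also above them for Acsl3 and Acsl5, while these groups overlapped for Acsl4 and Cd36. Markers of liver endothelial cells (8 of 8) summed to 261–278 CPM in Siah2 KO females and 213–242 in Siah2 KO males, and to 298–355 in wild type females and 217–271 in wild type males. The part of these cells in the levels of Acsl3, Acsl4, Acsl5 and Cd36 was not tested. Of 7 markers of fat cells, Plin1 and Retn were at 0 in each library, Adipoq was at most 0.376 CPM and Lep at most 0.598 CPM. Fabp4, which endothelial cells and macrophages also express, was at 47.2 to 118 CPM, Cfd at 0 to 25.9 CPM and Cidec at 1.43 to 9.39 CPM. The list summed to 53.7–56.3 CPM in wild type females, 61.6–114 in Siah2 KO females, 55.6–127 in wild type males and 75.6–136 in Siah2 KO males, and its part in these levels was not tested.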

How the data were processed

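QuantSeq (Lexogen) libraries of liver RNA came from 12 mice in 4 groups of 3. The authors trimmed and mapped the reads on BaseSpace and deposited raw read counts per gene symbol for each mouse, with no normalization. The submitters' processing notes name STAR, DESeq and mm10. RefSeq positions and promoter windows are those of GRCm38.p6, the same assembly. Columns were matched to samples by mouse number. Of the symbols, 27 had been turned into dates (0.228% to 0.272% of the counts) and were kept in the totals. Rn45s, the ribosomal RNA precursor, held 5.68% to 17.9%. Reads carried no molecular identifiers.

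All genes were tested with edgeR 4.0.16 in R 4.3.3 (filterByExpr, TMM, quasi-likelihood F test, two-sided, Benjamini-Hochberg adjustment, threshold 0.05). Standard errors are implied by the test statistic, and log2 CPM used a prior count of 3. Alternatives were DESeq2 1.42.0, limma-voom (limma 3.58.1), RLE scaling, no filter beyond 1 count, libraries thinned to the smallest total, Rn45s left out, leaving out each mouse, a sex term in the combined fit, and all 4 groups in 1 fit. DESeq2 without mouse 1091 was added after the data were seen. The tests were tried on simulated data.

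The members and lists were chosen with earlier results of these data known. All 10 members are named. Of the other lists, genes called by edgeR or DESeq2 and up to 3 with the smallest unadjusted p are named, and up to 3 genes most like each member in pattern. The values of 1 gene on these lists are not reported here.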

Additional observations from a re-analysis of the deposited data

How the results depend on the processing

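No paired analysis was possible because the groups share no mouse numbers. The settings other than edgeR with 1 mouse left out include DESeq2 without mouse 1091. Under these, 414 of 450 log2 fold changes kept their direction and their side of the threshold. By edgeR with 1 mouse left out, 414 of 480 did, in both cases over the 10 genes and all 6 comparisons. By limma-voom the values that changed sign were those of Acsl3 (0.023) and Acsm1 (0.16) between female genotypes, Acsl5 (0.0040) and Acsm1 (0.013) with both sexes combined and Dbi (0.027) for the difference between the sexes. In thinned libraries they were Acsl3 (0.045) between female genotypes, Acsl3 (0.045) and Cd36 (0.10) between male genotypes, Acsl3 (0.045) with both sexes combined, Fabp2 (0.091) and Dbi (0.0015) for the difference between the sexes and Fabp2 (0.030) between Siah2 KO females and males. Without Rn45s, an rRNA gene, they were Acsl3 (0.0070) between female genotypes and Acsm1 (−0.020) for the difference between the sexes. In the fit of all 4 groups it was Acsl3 (0.0015) between female genotypes. By DESeq2 without mouse 1091 they were Acsl3 (0.12), Acsm1 (0.76), Fabp1 (0.0016) and Dbi (0.25) between female genotypes, Acsl3 (0.064), Acsl5 (0.16), Acsm1 (0.27) and Dbi (0.0092) with both sexes combined, Fabp2 (0.056) and Dbi (0.40) for the difference between the sexes and Acsl5 (−0.22), Acsm1 (−0.55), Fabp2 (−0.11) and Dbi (−0.33) between wild type females and males. With 1 mouse left out, values of both signs were found between female genotypes for Acsl3 (−0.22 to 0.11), Acsl5 (−0.062 to 0.48), Fabp2 (−0.12 to 0.36), Acsm1 (−0.39 to 0.75) and Dbi (−0.34 to 0.24). Between male genotypes they were Acsm1 (−0.31 to 0.091), Acsl4 (−0.32 to 0.013), Cd36 (−0.43 to 0.20), Acsl3 (−0.24 to 0.037) and Acsl5 (−0.26 to 0.034). With both sexes combined they were Acsl5 (−0.097 to 0.15), Acsl3 (−0.18 to 0.070), Acsm1 (−0.23 to 0.25), Acsl4 (−0.064 to 0.16) and Acsl1 (−0.33 to 0.052). For the difference between the sexes they were Acsm1 (−0.35 to 0.84), Dbi (−0.22 to 0.40), Acsl3 (−0.092 to 0.27) and Fabp2 (−0.44 to 0.062). Between wild type females and males they were Fabp1 (−0.49 to 0.034), Acsl5 (−0.19 to 0.38), Acsm1 (−0.53 to 0.65), Fabp2 (−0.081 to 0.31) and Dbi (−0.30 to 0.31). Between Siah2 KO females and males they were Fabp2 (−0.33 to 0.12) and Dbi (−0.045 to 0.28). Of the values that changed sign, that of Acsm1 between female genotypes by DESeq2 without mouse 1091 alone passed the threshold (adjusted p = 0.0221). The cause of these turns was not tested, beyond the mouse that was left out.

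Counts of called genes varied with the setting. Counts over all genes and counts out of 10 are not on the same scale, so the share of all genes is added for DESeq2 without mouse 1091. In females edgeR called 0 of all genes, DESeq2 305, edgeR without a filter 484 and the fit of all 4 groups 427. DESeq2 without mouse 1091 called 807 (10.6% of genes), of which 2 were among the 10. With 1 mouse left out the count ran from 0 to 936, the highest without mouse 1091, and from 0 to 1 among the 10. In males DESeq2 called 6 and edgeR without a filter 29, with 0 to 3 when 1 mouse was left out, the highest without wild type male 1086. With both sexes combined limma-voom and thinned libraries called 0, and the range with 1 mouse left out was 0 to 1. For the difference between the sexes DESeq2 called 267, edgeR without a filter 325 and thinned libraries 7. DESeq2 without mouse 1091 called 626 (8.22% of genes), 1 of them among the 10. The range with 1 mouse left out was 0 to 522, the highest without mouse 1091. Between wild type females and males DESeq2 called 338, edgeR without a filter 536 and the fit of all 4 groups 505. DESeq2 without mouse 1091 called 741 (11.9% of genes), 2 of them among the 10. The range with 1 mouse left out was 43 to 740. Between Siah2 KO females and males the fit of all 4 groups called 352, 1 of them among the 10, against 1044 and 3 of the 10 in the main fit. With 1 mouse left out the range was 486 to 1056, with 2 to 3 of the 10. Precision was limited by 3 mice per group and, for Cd36, by as few as 36 reads in a library, and its 95% interval between male genotypes ran from −0.84 to 0.60.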
